A study of Mus musculus with 4 samples.

Results

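The 7SK RNA and the transcripts of its bound proteins and of the kinase P-TEFb that it stores were followed in mouse hepatocyte cells. A hairpin was aimed at Safb, the gene of the nuclear matrix protein SAFB. The members are the rows of the deposited table whose symbol is Rn7sk, Larp7, Mepce, Hexim1, Cdk9, Ccnt1 or Ccnt2, 7 of 52192 genes, and each symbol had 1 row. RNA came from AML12 cells, a hepatocyte line derived from mice carrying a human TGF-alpha transgene. The cells received a lentiviral hairpin against Safb (shSafb, 2 libraries) or a control hairpin (shCtrl, 2 libraries). All 4 libraries came from cells kept in 10% fetal bovine serum, a liquid ITS supplement and 0.1 uM dexamethasone, a glucocorticoid. The cells were collected 5 days after transfection, and the volume of virus was 200 ul for all 4. The protocols used here do not say whether cells carrying the hairpin were selected. Values are TPM, each gene's share of the transcripts in a library after correction for its length, and they leave the sequencing depth unknown.

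P-TEFb is the kinase CDK9 bound to cyclin T1 or cyclin T2. It phosphorylates RNA polymerase II and the factors that hold it paused near promoters, and so lets transcription go on into the gene body. Much of the P-TEFb of a cell is stored in an inactive form on the 7SK RNA, a noncoding RNA made by RNA polymerase III. The methyltransferase MEPCE caps the 5′ end of 7SK and stays bound, LARP7 holds the 3′ end and protects it, and HEXIM1 binds the 5′ hairpin and inhibits CDK9. Most of this biochemistry was worked out with human proteins and human 7SK.

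The 7SK gene Rn7sk (ENSMUSG00000065037) lies on chromosome 9 from 78175303 to 78175633 on the minus strand of GRCm38 (mm10), in GENCODE mouse release 21. It is a single exon of 331 bases, 281 bases from the long noncoding gene C920006O11Rik, and no annotated gene overlaps it. Its 5′ segment is shown because HEXIM1 is known to contact GATC letters (GAUC in RNA) within it, and its 3′ segment because LARP7 binds the terminal run of U. Both are written with T for U, as in the GENCODE transcript. GATC occurs 3 times in the 331 bases, at bases 13 to 16, 42 to 45 and 64 to 67, all within the 5′ segment and set in capitals there. The capitals mark every occurrence, and these data do not show which of them HEXIM1 contacts. In the 3′ segment the capitals mark the last 3 bases.
Rn7sk bases 1 to 110: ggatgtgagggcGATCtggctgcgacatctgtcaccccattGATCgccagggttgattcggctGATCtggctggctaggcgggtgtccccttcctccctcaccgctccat
Rn7sk bases 272 to 331: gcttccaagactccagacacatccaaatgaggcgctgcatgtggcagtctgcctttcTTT

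Safb, the targeted gene, was listed at 15.8 and 15.02 TPM in the shSafb libraries, against 23.8 and 23.3 TPM with the control hairpin. The log2 change was -0.56 ± 0.07 (SE; limma, Benjamini-Hochberg adjusted p = 0.00411), and the mean TPM was 0.653 of the control mean. The loss of the transcript in bulk RNA was thus partial, and SAFB protein was not measured here. The summed TPM of 7 hepatocyte markers was 13224 and 13083 in shSafb and 9316 and 9279 in shCtrl, and that of 9 markers of leukocytes, macrophages, endothelial and stellate cells was 2.73 and 3.54 in shSafb and 3.23 and 3.16 in shCtrl, with Adgre1, Kdr and Lrat at 0 throughout. The higher hepatocyte sum rested on Trf, which rose to 6796 ± 26.1 TPM in shSafb, against 2435 ± 24.6 TPM in shCtrl (SD, n = 2 each). The other 6 hepatocyte markers summed to 6409.9 and 6305 TPM in shSafb and 6864 and 6861 TPM in shCtrl, and Alb and Apoa1 among them fell. In bulk RNA, fewer cells with a transcript and less of it per cell cannot be told apart.

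Of the 7 members, Rn7sk and Ccnt1 rose in shSafb, none fell, and 5 did not pass the test (limma on log2(scaled TPM + 1) over 13111 genes, adjusted p under 0.05). Over all tested genes 44.3% were called, 21.9% higher and 22.4% lower, so the 28.6% of members called was below the background. In all 7 members the shSafb libraries lay wholly above (3) or below (4) the shCtrl libraries. The same held for 74.7% of tested genes (35.5% higher, 39.3% lower), so this separation is not particular to the members. The libraries placed Larp7, Mepce, Hexim1 and Cdk9 on the lower side in shSafb, and Rn7sk, Ccnt1 and Ccnt2 on the higher side.

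**Figure D1:**
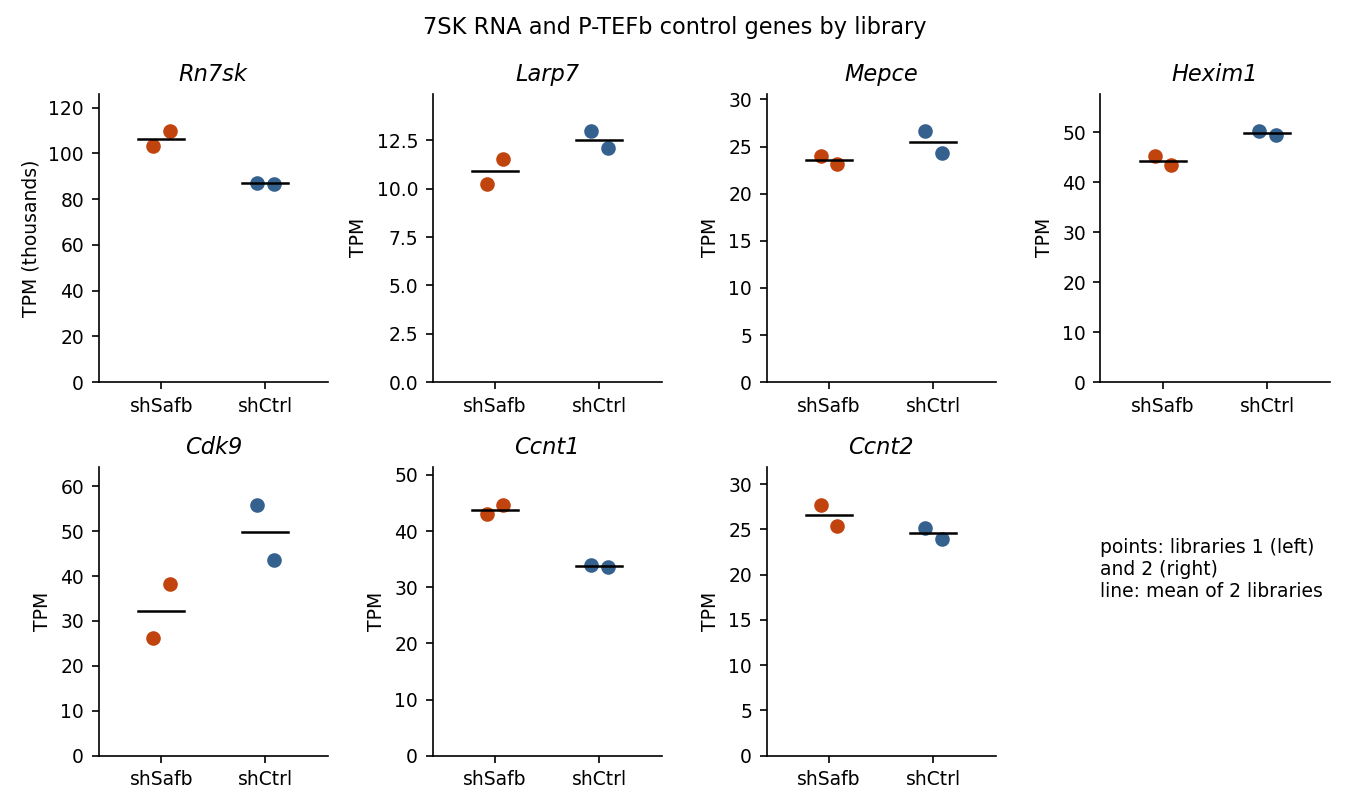
TPM of the 7 genes in each library (points, library 1 left of library 2; y axes start at 0 and differ between panels), shSafb left of shCtrl, and the mean of 2 libraries (lines). Rn7sk and Ccnt1 stand clear of the control libraries, and the Cdk9 libraries spread widely within both groups.

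Rn7sk had 103073 and 109676 TPM in the shSafb libraries, against 87220.2 and 86731 TPM in the shCtrl libraries. It was the most abundant RNA in all 4, and held 10.3% and 10.97% of the TPM in shSafb and 8.72% and 8.67% in shCtrl. The mean was 106374 ± 4669 TPM in shSafb and 86976 ± 346 TPM in shCtrl (SD, n = 2 each), 1.22-fold higher in shSafb. Both shSafb values exceeded both controls, and the gap between the groups was wider than the spread within either. The log2 change was 0.32 ± 0.06 (SE; adjusted p = 0.0155), smaller in size than 84.9% of the called changes. The call was lost without shSafb replicate 1 (adjusted p = 0.116) or shSafb replicate 2 (0.181), and the adjusted p ran from 0.00642 to 0.721 over 14 alternatives, while the change stayed positive, between 0.27 and 0.36.

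GENCODE lists many partial copies of 7SK elsewhere in the genome, so reads of the RNA could be divided among them. A BLAST search of the 331 bases against all annotated transcripts found 39 other genes with at least 100 aligned bases at 80% identity or more, spread over 18 chromosomes. Of these, 27 were listed at 0 in every library, 10 were above 0 but averaged under 1 TPM, and 2, Gm24447 and Gm26315, averaged more. The match began within the first 5 bases of 7SK in 30 of the 39 and ended within 10 bases of base 241 in 27. In 1 copy it reached the last base. Most matches thus covered the 5′ hairpin region and stopped short of the 3′ end. Gm24447 matched bases 1 to 241 at 100% identity and so keeps the GATC letters. Whether the other copies keep them was not examined.

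**Figure D2:**
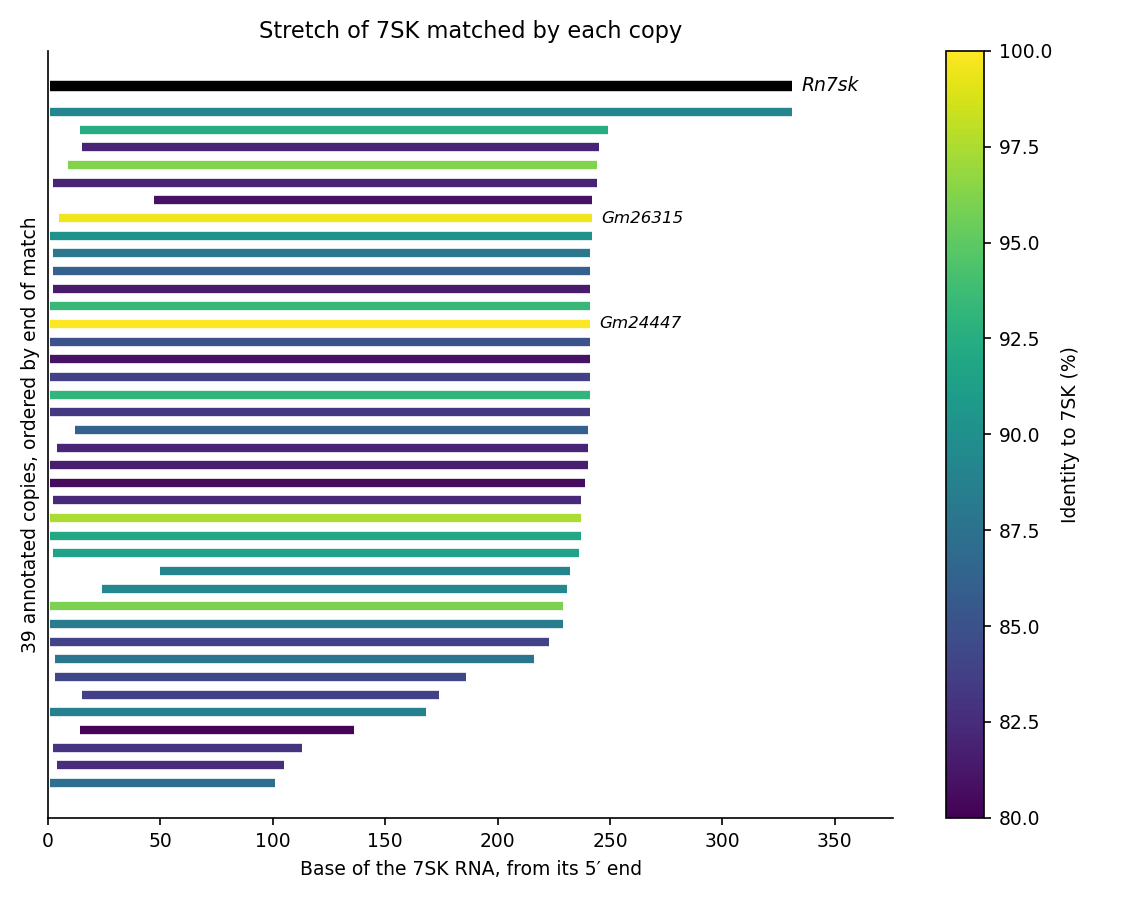
The stretch of the 7SK RNA that each of 39 annotated copies matches (x axis, base of 7SK from its 5′ end; 1 bar per copy, coloured by percent identity), with Rn7sk itself in black at the top. Most bars begin at the 5′ end and stop near base 241, and the 2 copies that averaged at least 1 TPM are named.

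Gm24447 is annotated on the plus strand of chromosome 15, from 93234363 to 93234700. Its first 241 bases are the same as those of 7SK, after which the sequences part. The 60 bases around that point are shown for both, with the bases after it in capitals.
Rn7sk bases 212 to 271: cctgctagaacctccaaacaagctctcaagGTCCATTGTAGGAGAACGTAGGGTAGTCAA
Gm24447 bases 212 to 271: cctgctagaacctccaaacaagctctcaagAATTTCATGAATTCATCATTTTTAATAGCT
Gm24447 had 1120 and 1188 TPM in shSafb, against 969 and 968 TPM in shCtrl. That was 1.09% and 1.08% of the Rn7sk level in the shSafb libraries and 1.11% and 1.12% in the shCtrl libraries, so the copy moved almost in step with Rn7sk. With all 39 copies added to Rn7sk, the log2 change was 0.31 (adjusted p = 0.0155), and the copies' sum was 1129 and 1198 TPM in shSafb and 975 and 982 TPM in shCtrl. A sum this small beside Rn7sk could hardly alter its log2 change.

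The proteins that hold 7SK together were not called. Larp7 (ENSMUSG00000027968), on chromosome 3 from 127536714 to 127553349, encodes the protein that binds the 3′ end of 7SK, and was the least abundant member at 10.3 and 11.5 TPM in shSafb and 13.0 and 12.1 TPM in shCtrl. Its log2 change was -0.16 (95% interval -0.40 to 0.07; adjusted p = 0.199). Mepce (ENSMUSG00000029726), on chromosome 5 from 137781906 to 137787655, encodes the capping enzyme, and had 24.0 and 23.1 TPM in shSafb and 26.6 and 24.4 TPM in shCtrl. Its log2 change was -0.08 (-0.25 to 0.09; adjusted p = 0.338). For both genes the intervals leave room for a modest fall as well as for none. Larp7 shares 98.4% identity over 764 bases with Gm12666 and 90.2% over 479 bases with Gm31104, both listed at 0, and its introns hold the Mir302 cluster on the opposite strand, also listed at 0.

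Hexim1 (ENSMUSG00000048878), the inhibitor of CDK9, is an intronless gene on chromosome 11 from 103116231 to 103119725, and no annotated gene overlaps it. It had 45.2 and 43.4 TPM in shSafb, against 50.2 and 49.5 TPM in shCtrl. The controls were tightly grouped and both knockdown libraries lay below them. The log2 change was -0.14 ± 0.05 (SE; 95% interval -0.28 to 0.00; adjusted p = 0.0943), and the call was reached under none of 13 alternatives (adjusted p = 0.0507 to 0.331). Its relative Hexim2, which can also inhibit P-TEFb, had 7.51 and 7.32 TPM in shSafb and 8.51 and 7.32 TPM in shCtrl, and the groups overlapped (adjusted p = 0.655).

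Cdk9 (ENSMUSG00000009555), the kinase, lies on chromosome 2 from 32705784 to 32713076 on the minus strand. It had 26.2 and 38.3 TPM in shSafb, against 55.9 and 43.6 TPM in shCtrl, the widest spread relative to the mean among the members. Its means, 32.2 ± 8.57 TPM in shSafb and 49.7 ± 8.71 TPM in shCtrl (SD, n = 2 each), gave the largest log2 difference among the members, -0.60 ± 0.21 (SE), but it did not pass (95% interval -1.14 to -0.06 before adjustment; adjusted p = 0.0731). Without shSafb replicate 2, the higher of the knockdown libraries, the difference was -0.86 and was called (adjusted p = 0.0254), and without shSafb replicate 1 it was -0.34 (adjusted p = 0.169). It was -0.45 without shCtrl replicate 1 (adjusted p = 0.239) and -0.75 without shCtrl replicate 2 (0.0980). The size of the Cdk9 difference thus moved with every library left out, in both groups. The microRNA genes Mir2861 and Mir3960 share exon sequence and strand with Cdk9. Mir2861, chosen here for that overlap, was at 4.23 and 2.02 TPM in shSafb and 6.24 and 6.72 TPM in shCtrl, and reads of the 2 genes may not be told apart.

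Ccnt1 (ENSMUSG00000011960) encodes cyclin T1, the main partner of CDK9, and lies on chromosome 15 from 98538689 to 98570923 on the minus strand. It had 43.0 and 44.7 TPM in shSafb, against 34.0 and 33.5 TPM in shCtrl. Both groups were narrow and well apart. The rise was 1.30-fold, with a log2 change of 0.39 ± 0.05 (SE; adjusted p = 0.00641). Ccnt1 was called under all 13 alternatives to scaling, filter, pseudocount, variance model, block and library (adjusted p = 0.00526 to 0.0403), though its change stayed below a fold of 1.5. An antisense gene, 9330020H09Rik, overlaps exons of Ccnt1 and had 2.62 and 2.18 TPM in shSafb and 2.08 and 2.37 TPM in shCtrl. These levels are low beside Ccnt1. The sources used here do not say if counting took account of strand.

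Ccnt2 (ENSMUSG00000026349), on chromosome 1 from 127774164 to 127808061, encodes cyclin T2, the other partner of CDK9. It had 27.7 and 25.4 TPM in shSafb, against 25.1 and 24.0 TPM in shCtrl, with a log2 change of 0.13 (95% interval -0.05 to 0.32; adjusted p = 0.186). The lower shSafb library was barely above the higher control. Summed, the cyclins stood at 70.7 and 70.1 TPM in shSafb and 59.1 and 57.5 TPM in shCtrl. The ratio of Ccnt1 to Ccnt2 was 1.55 and 1.76 in shSafb and 1.35 and 1.40 in shCtrl.

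**Figure D3:**
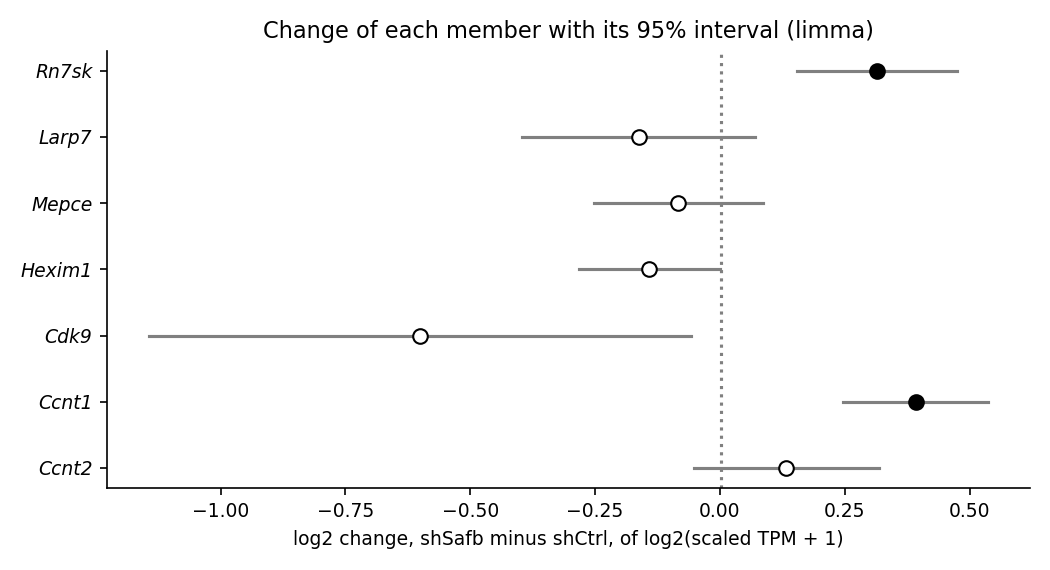
log2 change of each member (points; filled where adjusted p was under 0.05) with its 95% limma interval before adjustment (lines), on the log2(scaled TPM + 1) scale as shSafb minus shCtrl; the dotted line is the median of all tested genes, 0.00. Rn7sk and Ccnt1 lie to the right with short intervals, and Cdk9 lies farthest left with the longest interval.

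On the TPM scale, which is per length, the order of the levels differed between the groups below Rn7sk. In shSafb it ran Hexim1, Ccnt1, Cdk9, Ccnt2, Mepce, Larp7. In shCtrl it ran Hexim1, Cdk9, Ccnt1, Mepce, Ccnt2, Larp7. Neighbours whose libraries overlapped were Hexim1 and Ccnt1, and Cdk9 and Ccnt2, in shSafb, and Hexim1 and Cdk9, and Mepce and Ccnt2, in shCtrl. Cdk9 thus stood beside Hexim1 in control cells and beside Ccnt2 in knockdown cells, with the spread of Cdk9 noted above.

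Ratios taken within a library do not depend on its scaling. Rn7sk was 3888 times the geometric mean of the 6 protein-coding members in both shSafb libraries, against 2846 and 3068 times in the shCtrl libraries, a difference of 0.40 on the log2 scale. Rn7sk alone differed by 0.29 and the geometric mean by -0.11. Of the 6, Cdk9 had the largest difference and the widest spread, while Ccnt1 and Ccnt2 lay higher in shSafb. The ratio thus shows no shared fall of the 6. Rn7sk and Cdk9 were both higher in shSafb replicate 2 than in shSafb replicate 1, so the equal ratios do not measure precision. Relative to Larp7 alone, the ratio was 10046 and 9503 in shSafb and 6725 and 7181 in shCtrl, and relative to Hexim1 it was 2278 and 2525 in shSafb and 1737 and 1752 in shCtrl. In each case the groups did not overlap, but an exact permutation of 2 against 2 libraries cannot give a p below 0.33, so no test is given. These are ratios of TPM, not of RNA to protein.

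The ratio of the inhibitor to the kinase, Hexim1 over Cdk9, was 1.73 and 1.13 in shSafb and 0.898 and 1.14 in shCtrl, and the groups overlapped. Ccnt1 over Cdk9, a ratio chosen after the values were seen, was 1.64 and 1.17 in shSafb and 0.608 and 0.769 in shCtrl. The cyclin T1 transcript was therefore above the kinase transcript in both knockdown libraries and below it in both controls.

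Of 4 other abundant noncoding RNAs made by RNA polymerase III, none was called higher. The 7SL RNAs of the signal recognition particle, Rn7s2 and Rn7s1, fell. Rn7s2 had 58136 and 59400 TPM in shSafb, against 73670.2 and 66174 TPM in shCtrl (log2 change -0.22 ± 0.06, SE; adjusted p = 0.0371). Rn7s1 had 14643 and 15485 TPM in shSafb, against 17899 and 17987 TPM in shCtrl (log2 change -0.23 ± 0.05, SE; adjusted p = 0.0260). These genes resemble each other, so reads may be divided between them, and each call held in 5 of 13 alternatives. Rpph1, the RNA of RNase P, had 44650 and 42880 TPM in shSafb and 52192 and 56048 TPM in shCtrl (adjusted p = 0.0363, called in 5 of 13 alternatives). Rmrp, the RNA of RNase MRP, had 17634 and 19409 TPM in shSafb and 18909 and 18154 TPM in shCtrl, and the groups overlapped (adjusted p = 0.784).

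Within each library, Rn7sk was 1.77 and 1.85 times Rn7s2 in shSafb, against 1.18 and 1.31 times in shCtrl. Against Rmrp it was 5.85 and 5.65 times in shSafb and 4.61 and 4.78 times in shCtrl. These ratios were also chosen after the values were seen. All 5 RNAs share a fixed library total and a large part of it, so their TPM are not independent of each other. Whether this bears on their opposite moves was not tested. Small RNA and mitochondrial genes together held 31.2% and 31.6% of the TPM in shSafb and 30.8% and 32.7% in shCtrl, and with them left out of the total the log2 change of Rn7sk was 0.28 (adjusted p = 0.0119).

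**Figure D4:**
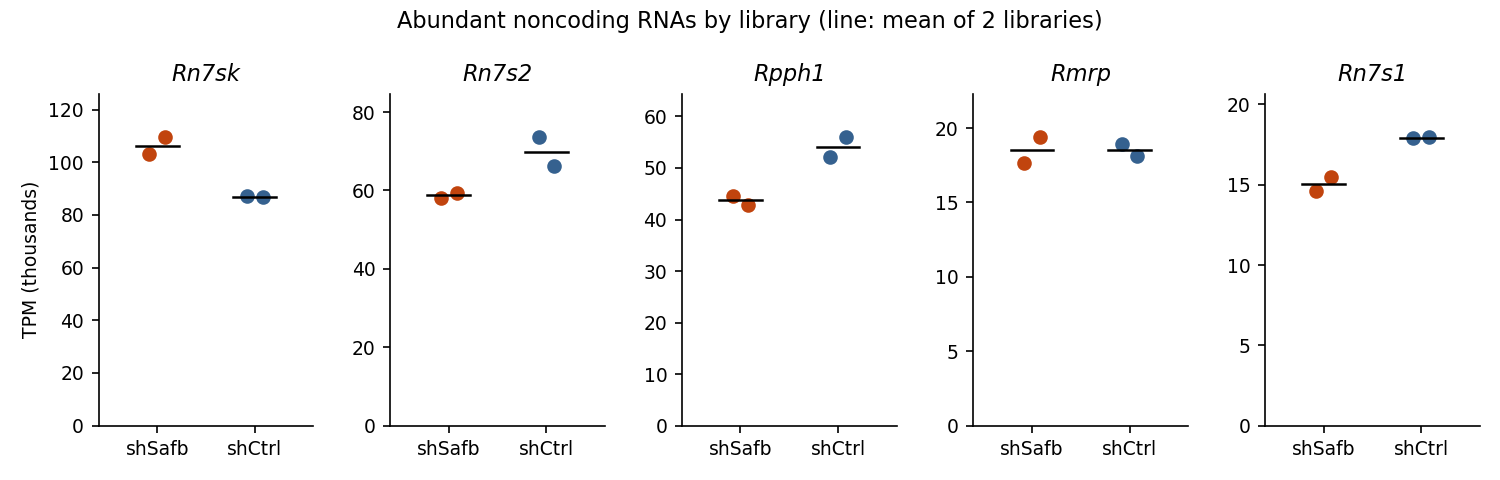
TPM of the 5 abundant noncoding RNAs in each library (points) with group means (lines), shSafb left of shCtrl; y axes start at 0 and differ between panels. Rn7sk is higher in the shSafb libraries, Rn7s2, Rpph1 and Rn7s1 are lower there, and the Rmrp libraries overlap.

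Among 9 tested RNAs of the small nuclear and cytoplasmic list, 4 rose, 3 fell and 2 did not pass, with a median log2 change of 0.16 (all tested genes, 21.9% higher, 22.4% lower, median 0.00). These counts depended on the settings and on single libraries. With genes from a mean of 0.1 TPM, no filter, no intensity trend, the replicate block or upper quartile scaling, 0 were lower. The number higher under these settings was 3, 1, 2, 2 and 4, in that order. The number higher was 0 without shSafb replicate 1, 1 without shSafb replicate 2, 2 without shCtrl replicate 1 and 3 without shCtrl replicate 2. The number lower was 0 without either shSafb library, 2 without shCtrl replicate 1 and 1 without shCtrl replicate 2. The spliceosomal U1 gene Rnu1a1 rose to 28.6 ± 1.17 TPM in shSafb, against 20.4 ± 2.44 TPM in shCtrl, and the U11 gene Rnu11 of the minor spliceosome to 10.4 ± 0.836 TPM, against 6.26 ± 1.11 TPM (SD, n = 2 each). Each of these calls was lost without 1 or more libraries, Rnu1a1 without shSafb replicate 1 (adjusted p = 0.0598) and Rnu11 without shCtrl replicate 1 (0.0549), shSafb replicate 1 (0.0943) or shSafb replicate 2 (0.0575). The U1 gene Rnu1b1 is listed at 0 in every library, and so is Rnu6, a gene of U6, another RNA that LARP7 binds. The sources used here do not say how reads shared by genes of like sequence were assigned. The rows of Rnu1a1, Rnu1b1 and Rnu6 may therefore not measure the levels of U1 and U6.

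Genes for RNA polymerase III and the factors of the 7SK promoter went both ways, with 2 of 22 higher, 6 lower and 14 not called (median -0.01), which is 36.4% called, against 44.3% of all tested genes. The number higher was 1 without shCtrl replicate 1, shCtrl replicate 2 or shSafb replicate 2, and the number lower was 4 to 5 when any 1 library was left out. Polr3gl, a polymerase III subunit gene, fell to 7.51 ± 0.0816 TPM in shSafb, against 12.9 ± 0.382 TPM in shCtrl. Bdp1, which encodes a TFIIIB subunit, rose to 15.4 ± 0.249 TPM in shSafb, against 8.91 ± 0.410 TPM in shCtrl. The subunits of SNAPc, the complex that recognises 7SK and small nuclear RNA promoters, were also divided: Snapc2 fell (-0.54 ± 0.07; adjusted p = 0.00614), Snapc3 rose (0.47 ± 0.12; adjusted p = 0.0354), and Snapc1, Snapc4 and Snapc5 were not called. The most abundant gene of the list, Maf1, a repressor of polymerase III, had 61.4 and 62.1 TPM in shSafb and 61.0 and 52.0 TPM in shCtrl (adjusted p = 0.149). The Snapc3 call was lost without shCtrl replicate 1, shCtrl replicate 2 or shSafb replicate 2 (adjusted p up to 0.126). Snapc2 and Snapc3 lie outside the rule for named genes and were chosen after their values were seen.

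Proteins that bind or remodel 7SK outside the core complex had 6 of 13 genes higher, 1 lower and 6 not called (median 0.20, against 0.00 over all tested genes). The called share was 53.8%, against 44.3% of all tested genes, of which 21.9% were higher. Ppp1ca, a catalytic subunit of protein phosphatase 1 that can help to free P-TEFb from 7SK, rose to 955 ± 18.8 TPM in shSafb, against 643 ± 7.84 TPM in shCtrl. Dhx9, an RNA helicase gene, rose to 95.6 ± 2.60 TPM in shSafb, against 75.4 ± 5.56 TPM in shCtrl. Hnrnpr, whose protein binds 7SK that is free of P-TEFb, fell to 33.2 ± 1.204 TPM in shSafb, against 45.4 ± 1.83 TPM in shCtrl (SD, n = 2 each; adjusted p = 0.00608). Without shSafb replicate 1 or shSafb replicate 2 the number higher was 3, and the number lower was 2 without shSafb replicate 2.

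Of 8 tested genes whose proteins bring P-TEFb to chromatin, 1 was higher, 1 lower and 6 not past the test (median -0.04), so 25% were called, against 44.3% of all tested genes. The called genes encode alternative scaffolds of the super elongation complex. Aff4 rose to 101 ± 8.98 TPM in shSafb, against 67.2 ± 2.80 TPM in shCtrl (adjusted p = 0.00434), and Aff1 fell to 16.5 ± 0.274 TPM, against 24.5 ± 1.45 TPM (adjusted p = 0.00469).

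Of 14 pausing and elongation factor genes, 3 rose, 1 fell and 10 did not pass (median 0.01), so 28.6% were called, against 44.3% of all tested genes. Cdc73, encoding a subunit of the PAF1 elongation complex, rose to 17.0 ± 0.978 TPM in shSafb, against 8.39 ± 0.478 TPM in shCtrl. Tcea1, encoding the elongation factor TFIIS, rose to 59.1 ± 0.762 TPM in shSafb, against 40.6 ± 0.395 TPM in shCtrl. Supt4a, encoding a subunit of DSIF, a CDK9 substrate, rose to 136 ± 10.05 TPM in shSafb, against 102 ± 2.16 TPM in shCtrl. The gene that fell, Nelfb, encodes a subunit of the pausing factor NELF, lies outside the rule for named genes and had 51.2 and 48.1 TPM in shSafb and 69.8 and 60.05 TPM in shCtrl (adjusted p = 0.0210). Leaving out shCtrl replicate 1, shSafb replicate 1 or shSafb replicate 2 ended its call (adjusted p up to 0.0909).

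The other transcription kinases and their cyclins had 5 of 9 genes higher, 1 lower and 3 not called (median 0.21). The called share was 66.7%, against 44.3% of all tested genes, of which 21.9% were higher. Cdk12 and Cdk13, encoding kinases that act on elongating polymerase, had 38.0 ± 0.108 and 35.3 ± 0.952 TPM in shSafb, against 30.6 ± 0.945 and 28.7 ± 1.83 TPM in shCtrl. Cdk7, the kinase gene of TFIIH and the most abundant of the list, had 58.3 ± 1.26 TPM in shSafb and 51.0 ± 2.77 TPM in shCtrl, and Ccnc, the Mediator cyclin gene, had 7.58 ± 0.636 TPM in shSafb and 11.7 ± 1.83 TPM in shCtrl (SD, n = 2 each). Calls here were fragile: between 1 and 2 of the 9 genes were higher when any 1 library was left out, and none was lower except without shCtrl replicate 2, where 1 was.

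La family and capping relatives of the 7SK proteins had 2 of 6 tested genes higher and none lower (median 0.28), so 33.3% were called, against 44.3% of all tested genes. The number higher was 3 without shCtrl replicate 1, and 1 was lower without shSafb replicate 2. Larp4, encoding an RNA-binding relative of LARP7, rose to 35.2 ± 1.33 TPM in shSafb, against 20.7 ± 1.75 TPM in shCtrl. Ssb, encoding the La protein that binds the terminal U run of new polymerase III transcripts, rose to 79.9 ± 0.0976 TPM in shSafb, against 58.4 ± 1.99 TPM in shCtrl (adjusted p = 0.00512). Larp6 was listed at 0 in every library. Of 8 short-lived transcripts whose synthesis is sensitive to CDK9 inhibitors, 3 rose, none fell and 5 were not called (median 0.10), so 37.5% were called, close to the 44.3% of all tested genes. The number higher was 2 without shCtrl replicate 2 or shSafb replicate 2. Junb had 1177 and 1155 TPM in shSafb and 679.6 and 691 TPM in shCtrl, Ier3 had 162 and 157 TPM in shSafb and 133 and 125 TPM in shCtrl, and Myc had 21.4 and 23.9 TPM in shSafb and 17.6 and 15.5 TPM in shCtrl. Myc was no longer called without shCtrl replicate 2 or shSafb replicate 2, with an adjusted p of 0.0630 and 0.0692.

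**Figure D5:**
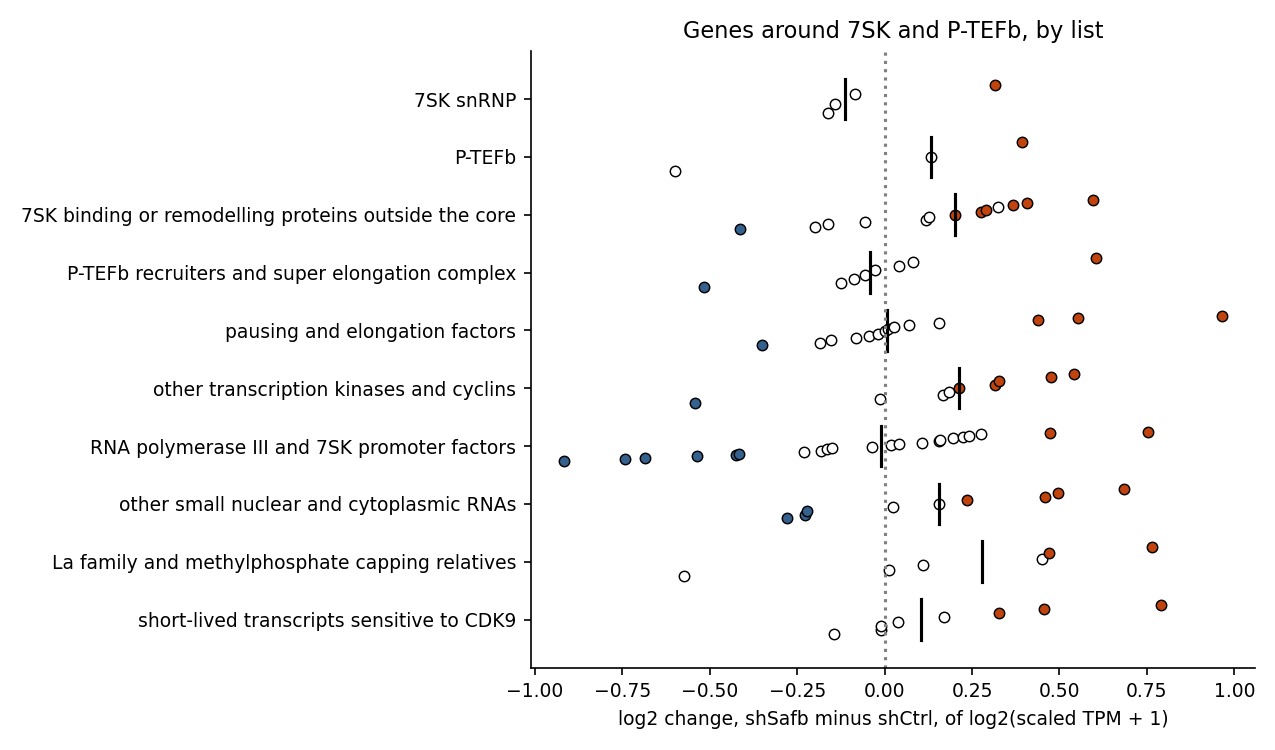
log2 change of every tested gene of the lists around 7SK and P-TEFb (x axis, shSafb minus shCtrl on the log2(scaled TPM + 1) scale; red, called higher; blue, called lower; white, not called), with the median of each list (black bars) and of all tested genes (dotted line). The lists spread on both sides of 0, with medians from -0.11 to 0.28.

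The genes with the pattern most like that of Rn7sk over the 4 libraries, by the Euclidean distance of centred log2(scaled TPM + 1), were Ccdc126 (distance 0.0108), Add2 (0.0133) and Srebf1 (0.0160). Their levels were far lower. Ccdc126 had 21.9 and 23.2 TPM in shSafb and 18.2 and 18.1 TPM in shCtrl, and Srebf1, which encodes a sterol-regulated transcription factor, had 78.2 and 82.4 TPM in shSafb and 66.1 and 65.9 TPM in shCtrl. The likeness describes 4 libraries and was not tested.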

How the data were processed

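RNA of 4 libraries, 2 shSafb and 2 shCtrl, was depleted of ribosomal RNA and sequenced from strand-specific libraries, per the labels' protocols. The submitters' processing notes name mm10 and the tools HISAT2, HTSeq, StringTie and DESeq2, with no versions or roles. The authors' deposited values are TPM per gene and library, which keep no read counts, so precision comes only from the spread between libraries. The TPM summed to 999843 in each shSafb and 999891 in each shCtrl library. The labels do not say that replicates were separate cultures, so p-values measure a spread that may be technical.

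Rows sharing 1 of 6 repeated identifiers were summed, which left 52192 genes, of which 52045 were found in GENCODE mouse release 21 (GRCm38). Genes with a mean of at least 1 TPM (13111) were tested, and all 7 members passed that filter. Each library was divided by its median ratio to the geometric mean (factors 0.992 and 0.995 for shSafb, 1.03 and 0.991 for shCtrl). The log2 of scaled TPM plus a pseudocount of 1 went into a limma fit (group as the only term, intensity trend, two-sided, Benjamini-Hochberg adjustment over all tested genes), and fold changes on that scale understate the change of low genes. Intervals are 95% limma intervals. Printed TPM, means, SDs and ratios are of the deposited values.

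The members, lists and alternatives were chosen with earlier results of these data known. Named genes were the members, Safb, Hexim2, up to 3 called genes with the smallest p and the most abundant tested gene of each list, and the 3 nearest to Rn7sk with predicted names left out. Some of these are not described beyond counts, and some are not reported here. Rpph1, Rmrp, Mir2861, 9330020H09Rik and the genes marked in the text lie outside the rule. Alternatives covered pseudocount, filter, scaling, variance model, replicate block, libraries, a fold threshold and the copies of 7SK. The fit was run on simulated data with few genes changed, and only its recovery of the largest change was checked. That check does not cover changes as small as that of Rn7sk, and no result here rests on it. R 4.3.3, limma 3.58.1, Python 3.11.15, pandas 2.3.3, numpy 2.4.6, matplotlib 3.10.9 and BLAST 2.17.0 were used.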

Additional observations from a re-analysis of the deposited data

How the results depend on the processing

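The positive change of Rn7sk held under all alternatives run, but its call did not. It was lost when genes from a mean of 0.1 TPM were tested (log2 change 0.30, SE 0.117) or with no filter (0.30, SE 0.497, against 0.06), with a 1.5-fold minimum added (0.32) and without either shSafb library. The cause of the wider SE was not tested. Leaving out 1 library gave 0.27 to 0.36. The members called higher numbered 1 with the 0.1 TPM filter and with no filter, 0 with the fold threshold, and 1 to 2 when 1 library was left out. The members called lower numbered 0 to 1 when 1 library was left out, the 1 being Cdk9. Ccnt1 kept its call except under the fold threshold. Over all genes, 1303 were higher and 1408 lower with the fold threshold, and 1754 to 2151 were higher when 1 library was left out. Hexim2, not called, ran from -0.13 to 0.011 when 1 library was left out, and was above 0 without shCtrl replicate 1. The ratio of Rn7sk to the protein members kept its direction, at 0.34 to 0.45 on the log2 scale without 1 library, and that of Hexim1 to Cdk9 stayed positive, at 0.17 to 0.78.

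Replicate numbers were shared by the groups, and the labels do not say that a number marks a pair. Deviations of same-numbered libraries had a Pearson's r of -0.06 across 13111 genes, which are not independent. With 2 libraries in a group the deviations are equal and opposite, so crossed numbers gave 0.06 by construction. This r therefore cannot show whether libraries were paired. With the replicate block, Rn7sk kept its log2 change of 0.32 but not its call (adjusted p = 0.0827), 1 member was called higher, and 2540 genes were higher and 2686 lower.

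With 2 libraries in each group and no depth, a missed call on Larp7, Mepce, Hexim1, Cdk9 or Ccnt2 does not show that it did not change.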
